A study of Mus musculus with 12 samples.

Results

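10 genes of the 2-cell-like programme other than Zscan4 were followed by name in a gene count table of mouse E14 embryonic stem cells. They were Tcstv1, Tcstv3, Tmem92, Sp110, Zfp352, Usp17la, Usp17lc, Usp17ld, Usp17le and Gm4340, and all 10 were present among the 19630 named genes of the table. Because copies within the Usp17l and Tcstv families resemble each other, each family was also summed over its rows. The Usp17l sum adds Usp17lb, which is not among the 10. The 12 RNA libraries fell into 4 groups of 3. These were mouse embryonic stem cells (mESCs) re-expressing a mutant EPOP, mESCs re-expressing wild-type (WT) EPOP, epiblast-like cells (EpiLCs) with the mutant and EpiLCs with WT EPOP. EPOP is a protein bound to Polycomb repressive complex 2, a writer of a repressive histone mark. What the mutation changes in EPOP is not stated in the labels, and neither parental nor EPOP knockout cells were analysed here. The mESCs grew on gelatin in 2i/LIF, a medium that holds the naive state, and the EpiLCs were derived in activin A and bFGF on plates coated with fibronectin.

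A small and changing fraction of cells in an mESC culture passes through a state that resembles the blastomeres of the 2-cell mouse embryo. The transcription factor Dux opens this programme, in which MERVL retroelements, the Zscan4 genes and a set of mostly rodent-specific multicopy genes are transcribed together. In bulk RNA, as here, fewer cells in the state and less RNA per cell in the state cannot be told apart.

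Roles of the 10 genes differ. Tcstv1 and Tcstv3 belong to a variable group of genes expressed at the 2-cell stage. Tmem92 encodes a small transmembrane protein and is used as a marker of Zscan4-positive cells. Sp110 encodes an interferon-inducible nuclear body protein of the Sp100 group, and Zfp352 a zinc finger protein transcribed in the 2-cell embryo. The Usp17l genes encode deubiquitinases, first described in mouse as cytokine-induced DUB enzymes. Gm4340 is a predicted gene of a tandem array.

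Their positions are given on GRCm38 from GENCODE M21, and all 10 are annotated as protein coding. Tcstv1 lies at chr13:119893388-119894785 on the minus strand and Tcstv3 at chr13:120316878-120318178 on the plus strand. The 4 Usp17l members lie on chromosome 7, with Usp17ld at chr7:103249737-103252505 (minus) and Usp17lc at chr7:103415072-103419880 (plus) in one stretch and Usp17le at chr7:104768049-104777470 (minus) and Usp17la at chr7:104857009-104862667 (plus) in another. Gm4340 lies at chr10:104194042-104196522 (plus), at the end of the array. The other genes lie at chr11:94777217-94782703 for Tmem92 (minus), chr1:85576899-85598817 for Sp110 (minus) and chr4:90218820-90225702 for Zfp352 (plus).

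Windows of 300 bases around annotated starts, 250 before and 50 after, were read from RefSeq (GRCm38.p6) for 6 of the 10 genes. Tcstv1, Tcstv3, Tmem92 and Usp17le had no entry. The first set is shown because 3 genes of different families and chromosomes share a repeated word there. The capitals mark CTTTAATC or its reverse complement. The Sp110 window is that of an upstream start at chr1:85603842-85604141 (minus strand), the Gm4340 window is chr10:104193792-104194091 (plus) and the Zfp352 window is chr4:90218570-90218869 (plus).
Sp110 upstream start: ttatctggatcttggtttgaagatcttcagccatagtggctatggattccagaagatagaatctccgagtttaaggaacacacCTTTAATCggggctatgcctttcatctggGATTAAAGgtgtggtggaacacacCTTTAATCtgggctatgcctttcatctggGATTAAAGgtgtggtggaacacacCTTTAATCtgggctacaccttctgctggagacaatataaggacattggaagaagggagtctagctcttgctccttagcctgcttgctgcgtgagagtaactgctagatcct
Gm4340: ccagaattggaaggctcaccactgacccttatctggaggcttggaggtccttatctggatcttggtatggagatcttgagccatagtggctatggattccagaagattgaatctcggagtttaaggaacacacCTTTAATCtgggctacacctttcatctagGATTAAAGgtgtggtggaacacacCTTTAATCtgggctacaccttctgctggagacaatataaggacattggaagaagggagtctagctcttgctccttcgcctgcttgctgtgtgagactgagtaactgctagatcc
Zfp352: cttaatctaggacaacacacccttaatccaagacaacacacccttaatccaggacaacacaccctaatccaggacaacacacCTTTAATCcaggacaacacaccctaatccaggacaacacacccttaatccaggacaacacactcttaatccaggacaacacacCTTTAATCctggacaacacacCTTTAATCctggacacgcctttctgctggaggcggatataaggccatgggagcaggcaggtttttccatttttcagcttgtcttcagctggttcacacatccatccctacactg

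The word was chosen after these sequences had been read, on either strand. It occurred 5 times in the Sp110 window and 3 times each in the Gm4340 and Zfp352 windows. Of all 32841 windows, 1.09% held it at least once, and 17 windows of 16 genes, or 0.0518%, held it 3 times or more. The Sp110 and Gm4340 windows aligned over 246 bases with 95.9% identity, apart from 57 bases of gaps, and each aligned with the Zfp352 window over 56 bases with 83.9% identity. The other annotated Sp110 window, at chr1:85598761-85599060, held no copy, and gene counts do not show which start was used.

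Related windows were also found at other genes. Of 24 windows that share at least 10 words of 30 bases with that of Gm4340, its own included, those of tested genes belong to Sp110, 5 copies in the Gm4340 array, Pemt, Arih2 and Sgk1. Pemt, a phospholipid methyltransferase gene, had a log2 fold change in mutant against WT mESCs of 0.40 (adjusted p = 0.299). Arih2, a ubiquitin ligase gene, fell by 0.16 in mESCs (adjusted p = 0.0174). Sgk1, a kinase gene, fell by 0.18 in mESCs (adjusted p = 4.29e-04) and rose by 0.46 in EpiLCs (adjusted p = 4.97e-16). These adjusted p, like those below unless another method is named, are from edgeR's quasi-likelihood test with Benjamini-Hochberg adjustment. It ran over all 13879 tested genes in the main fit. Fits with family sums, with another filter or method or without a library were each adjusted over their own tested genes.

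The second set is shown because the Usp17l copies are alike at their starts as well as in their transcripts. The capitals mark TATAAA, which was searched on either strand and is held by 13.6% of all windows. The windows are chr7:104856766-104857065 (plus strand) for Usp17la, chr7:103416446-103416745 (plus) for Usp17lc and chr7:103252456-103252755 (minus) for Usp17ld.
Usp17la: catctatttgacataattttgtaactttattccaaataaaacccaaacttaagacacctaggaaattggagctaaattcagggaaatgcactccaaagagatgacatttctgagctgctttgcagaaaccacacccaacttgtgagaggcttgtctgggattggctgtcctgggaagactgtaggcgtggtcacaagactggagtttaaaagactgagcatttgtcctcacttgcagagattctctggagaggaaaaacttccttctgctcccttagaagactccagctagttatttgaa
Usp17lc: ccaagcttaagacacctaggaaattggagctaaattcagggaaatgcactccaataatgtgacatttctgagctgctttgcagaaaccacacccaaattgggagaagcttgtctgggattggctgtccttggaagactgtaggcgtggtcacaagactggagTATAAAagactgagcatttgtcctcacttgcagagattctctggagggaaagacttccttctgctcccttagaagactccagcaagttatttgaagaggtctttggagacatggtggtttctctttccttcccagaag
Usp17ld: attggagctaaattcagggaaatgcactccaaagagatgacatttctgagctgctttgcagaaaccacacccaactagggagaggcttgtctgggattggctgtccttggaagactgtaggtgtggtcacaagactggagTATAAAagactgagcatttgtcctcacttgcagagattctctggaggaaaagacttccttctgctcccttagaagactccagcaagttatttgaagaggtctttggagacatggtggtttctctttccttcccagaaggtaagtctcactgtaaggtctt

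TATAAA stood in the Usp17lc and Usp17ld windows and not in that of Usp17la. The Usp17lc and Usp17ld windows aligned over 278 bases with 96.8% identity. Usp17la aligned with Usp17lc over 257 bases at 95.3% and with Usp17ld over 235 bases at 96.6%. These 3 windows held 1, 1 and 0 CpG, against a median of 7 over all windows, and at most 1 CpG was found in 14.1% of all windows.

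**Figure D1:**
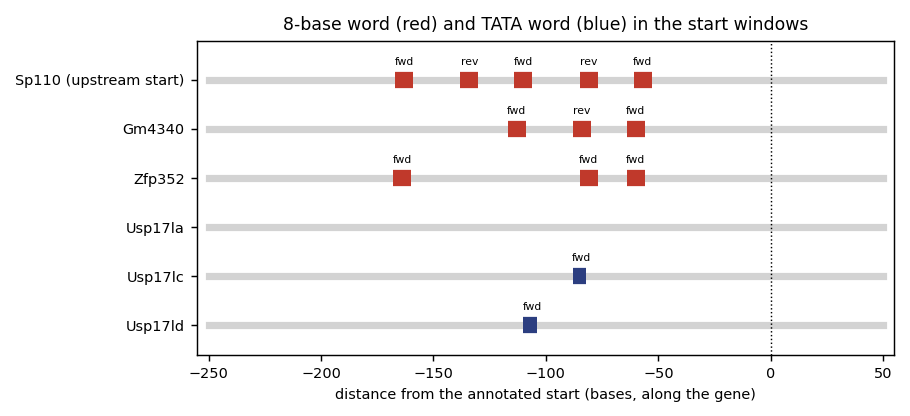
Places of the 8-base word (red) and the TATA word (blue) in the start windows of 6 genes, as distance from the annotated start in bases, with fwd or rev for the strand relative to the gene. The Sp110 upstream window holds 5 copies of the 8-base word, and the Gm4340 and Zfp352 windows hold 3 each.

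How far reads of one gene can be told from those of another was read from shared 50-base words of the annotated transcripts. Usp17ld shared 50.4% of its words with Usp17lc, and Usp17lc shared 41.5% with Usp17ld. Usp17le shared 15.3% with Usp17la, and Tcstv3 shared 17.9% with Tcstv1. Values of single Usp17l copies are therefore uncertain, above all for Usp17lc and Usp17ld. The family sum does not depend on how reads were split among its rows. A read counted for several rows would enter the sum more than once, and this was not tested. Gm4340 shared 98.9% of its words with each of 6 array copies, Gm20765, Gm21293, Gm21304, Gm21312, Gm6763 and Gm8764. Of the remaining genes, Tmem92 shared 1.9% of its words with other genes and Zfp352 7.1%. Sp110 shared 42.3% with other genes, 26.7% with Gm16026 alone, but 4.8% with genes of the count table. Its exons overlap G530012D18Rik on the opposite strand. No source used here states whether reads were counted by strand, so reads of that pair cannot be told apart.

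**Figure D2:**
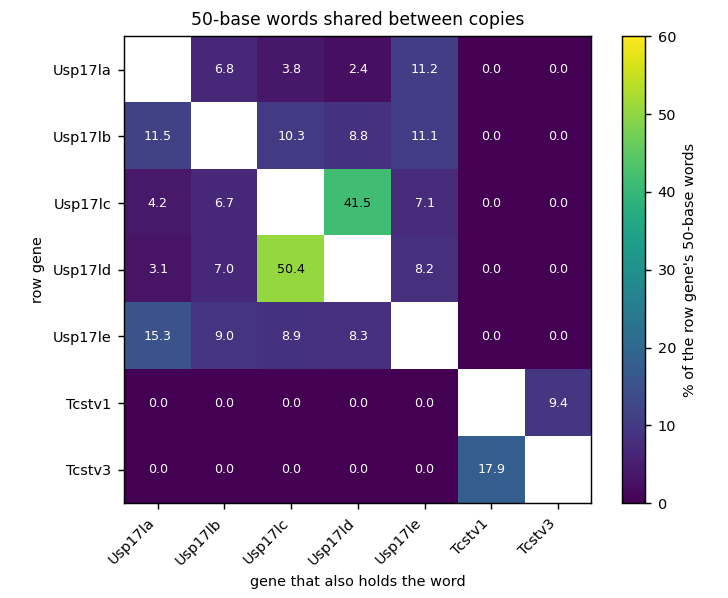
Percentage of the 50-base words of each row gene that also occur in the transcripts of the column gene, for 5 Usp17l and 2 Tcstv copies. Usp17lc and Usp17ld share the most, at 41.5% and 50.4%, and no word is shared between the families.

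Library depth was 7714164 to 10652151 counts over named genes, so the 10 genes were read at low counts. Together they had 80 counts in the 3 mutant mESC libraries, 498 in WT mESCs, 204 in mutant EpiLCs and 536 in WT EpiLCs. Epop itself, listed under an older symbol, had 461.8 to 473.6 CPM (counts scaled to a common library size) in mutant mESCs, 463.2 to 484.6 in WT mESCs, 196.9 to 215.7 in mutant EpiLCs and 205.1 to 211.5 in WT EpiLCs. Its transcript does not tell the mutant from the WT protein. The naive markers summed to 166.5 to 177.8 CPM in mutant EpiLCs and 371.4 to 396.7 in WT EpiLCs, against 4087 to 4156 in mutant mESCs and 4040 to 4217 in WT mESCs. The EpiLC markers summed to 1496 to 1517 CPM in mutant EpiLCs and 1378 to 1426 in WT EpiLCs, against 163.5 to 169.2 in mutant mESCs and 177.2 to 195.9 in WT mESCs. The 7 fibroblast markers, with Col3a1 at 0, summed to 3.23 to 6.04 CPM in mutant mESCs and 7.58 to 8.55 in WT mESCs, and to 6.31 to 7.91 in mutant EpiLCs and 3.47 to 5.24 in WT EpiLCs. The 5 endoderm markers, none at 0 throughout, summed to 8.43 to 8.80 CPM in mutant mESCs and 10.7 to 13.7 in WT mESCs, and to 6.70 to 11.7 in mutant EpiLCs and 27.8 to 33.7 in WT EpiLCs. Both sums differed by genotype without overlap in each state, and their part in the results below was not tested. Since no label calls the replicates separate cultures, the p-values cover only library-to-library spread, part or all of which may be technical. No label used here gives the number of cell lines per genotype. A difference between lines therefore cannot be told apart from an effect of the mutation. The term mutant effect below means the difference between mutant and WT libraries.

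Per transcript length, in the authors' deposited TPM values, which scale for transcript length and depth, the genes were ordered in WT mESCs as follows. Tcstv3 was the highest at 6.48 ± 0.417 TPM (SD, n = 3 for this and the next values), then Usp17le at 4.91 ± 0.944, Tmem92 at 3.92 ± 0.246 and Usp17lc at 2.90 ± 0.544. Usp17la followed at 1.82 ± 0.446, Sp110 at 1.12 ± 0.369 and Usp17ld at 0.706 ± 0.446. Zfp352, Tcstv1 and Gm4340 lay under 0.2 TPM on average. The spans of 1 SD about the mean overlapped for Usp17le and Tmem92, for Usp17la and Sp110 and for Sp110 and Usp17ld, so these neighbours are not ordered by these data. In WT EpiLCs, Usp17le had 7.41 ± 1.23 TPM and Tcstv3 5.25 ± 2.11, spans that overlapped.

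The first comparison asked how these transcripts differed between mutant and WT cells in the naive state. In mutant mESCs, 6 of the 10 genes were lower than in WT mESCs, with log2 fold changes of -3.91 to -2.04, and the other 4 did not pass the filter on low counts and were not tested. Of all tested genes, 10.1% were called lower in this comparison. The 6 are Tcstv3, Tmem92, Sp110, Usp17la, Usp17lc and Usp17le, and for each of them the WT libraries alone were enough to pass the filter, so that their count says little by itself. Values by library were as follows.

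Tcstv3 had 3, 8 and 6 counts in mutant mESCs, against 23, 29 and 23 in WT mESCs. No mutant library came near the lowest WT one. The log2 fold change was -2.15 ± 0.48 (SE, adjusted p = 2.84e-04), and the Tcstv sum, which adds a single count in 1 WT library, gave -2.16 ± 0.47 (adjusted p = 2.31e-04). Tcstv1 itself had 0 counts in every mutant mESC library and 1, 0 and 0 in WT mESCs. It was at or under the limit that a count of 0 allows in both groups, so no fold is given.

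Tmem92 had 2, 9 and 2 counts in mutant mESCs, against 35, 43 and 35 in WT mESCs. The WT libraries agreed closely, and the second mutant library held most of the mutant counts. Tmem92 fell by 3.12 ± 0.46 (adjusted p = 2.50e-08), and its log2 fold change was -4.15 without the second mutant library. Of its tested neighbours within 100000 bases, Gm11545 had a log2 fold change of -1.20 (adjusted p = 0.0568) and Xylt2, a xylosyltransferase gene, one of -0.11 (adjusted p = 0.447).

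Sp110 had 5, 0 and 0 counts in mutant mESCs, against 9, 15 and 6 in WT mESCs. All its mutant reads came from 1 library, which still lay below every WT library. Sp110 fell by 2.51 ± 0.76 (adjusted p = 0.0112). That call was lost without the second mutant library (-1.92, adjusted p = 0.0978), without the third (-1.97, 0.0908) or without the second WT library (-2.21, 0.0856), and without the first mutant library the group was at 0.

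Among the deubiquitinase genes, Usp17le had 5, 4 and 6 counts in mutant mESCs, against 41, 37 and 42 in WT mESCs. It fell by 3.01 ± 0.40 (adjusted p = 6.07e-10), and the groups were far apart. Usp17la had 3, 0 and 1 counts in mutant mESCs, against 18, 31 and 16 in WT mESCs. Its log2 fold change of -3.91 ± 0.65 (adjusted p = 7.56e-07) went to -5.15 without the first mutant library, since only 1 count was then left in that group. Usp17lc had 6, 8 and 2 counts in mutant mESCs, against 19, 30 and 17 in WT mESCs. It fell by 2.04 ± 0.48 (adjusted p = 7.63e-04), the smallest fall of the 6. Usp17ld, not tested, had 0, 5 and 0 counts in mutant mESCs, against 3, 10 and 3 in WT mESCs, and these groups overlapped.

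Summed over all 5 rows, Usp17l reads numbered 16, 25 and 24 in mutant mESCs, against 109, 165 and 129 in WT mESCs. That is 2.35 ± 0.497 CPM in mutant mESCs and 14.9 ± 2.45 CPM in WT mESCs (SD, n = 3 each). The sum fell by 2.65 ± 0.21 (adjusted p = 3.57e-21), and 6.33 times as many CPM were found in WT as in mutant mESCs. With the 4 listed copies alone, the fall was 2.75 ± 0.26 (adjusted p = 8.16e-17).

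Zfp352 and Gm4340 gave little in mESCs. Zfp352 had 1, 3 and 1 counts in mutant mESCs and 0, 5 and 1 in WT mESCs, with no separation between the groups. Gm4340 had no count in mutant mESCs, and its 6 counts in WT mESCs all came from 1 library. With the group's limit set at 3 counts, as a count of 0 allows, Gm4340 was at least 2.04-fold lower in mutant mESCs, but that bound rests on the first WT library, without which both groups were at 0. In the fit with no filter on low counts it was not called (adjusted p = 0.141). Its near-identical array copies were clearer. The 6 rows of Gm20765, Gm21293, Gm21304, Gm21312, Gm6763 and Gm8764 held the same counts in every library, so they are 1 measurement, with 1, 2 and 1 counts in mutant mESCs and 16, 15 and 14 in WT mESCs. Their log2 fold change was -3.40 ± 0.68 (adjusted p = 4.77e-05).

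**Figure D3:**
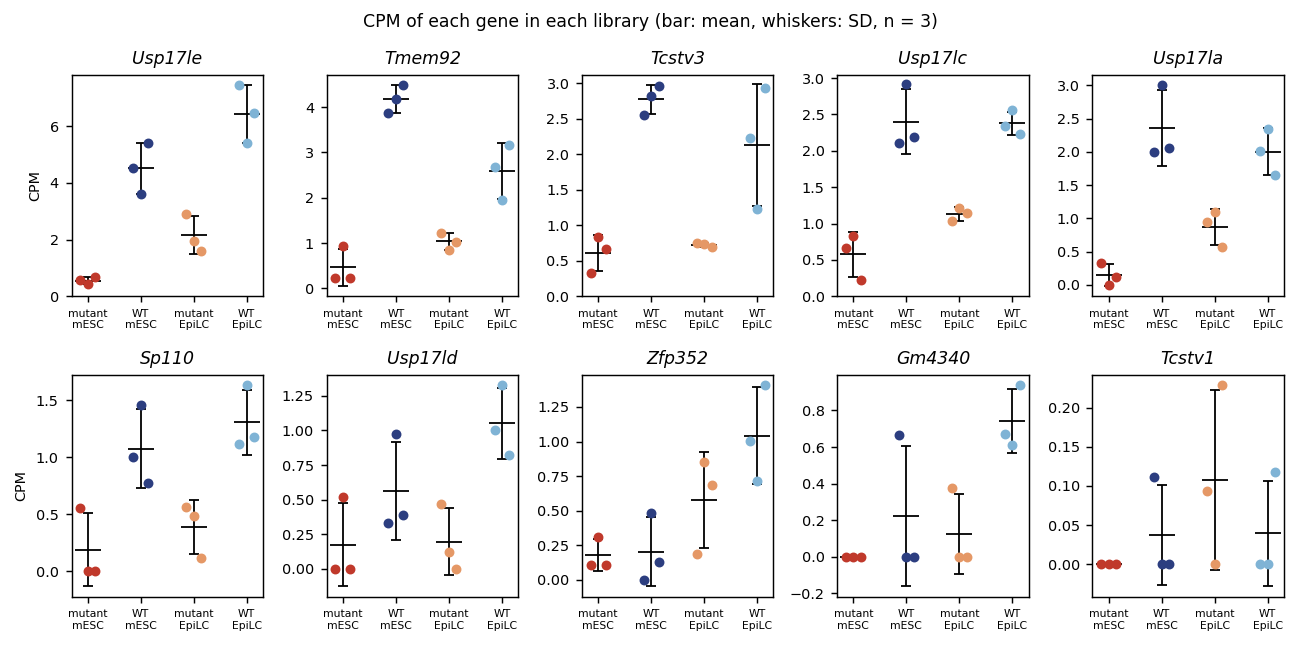
CPM of the 10 genes in each library, by group, with the mean as a bar and the SD as whiskers (n = 3). In mESCs, 6 genes have every mutant library below every WT library, which held for 16.4% of tested genes. Zfp352 and Tcstv1 overlap in both states.

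The same comparison in EpiLCs asked whether the mutant effect was present after the move towards the epiblast state. Here 3 of the 10 genes were called lower, Tcstv3, Tmem92 and Usp17le, where 8.82% of all tested genes were called lower. In 8 of the 10 genes every mutant EpiLC library lay below every WT EpiLC library, a pattern found in that direction for 16.0% of tested genes. Of the 8, Usp17ld and Gm4340 were not tested and lie outside that share, and Usp17lc and Usp17ld can share reads. The tested ones passed the filter through the WT libraries alone, as above, so that these counts say little by themselves.

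Usp17le had 31, 16 and 14 counts in mutant EpiLCs, against 67, 53 and 55 in WT EpiLCs. It fell by 1.55 ± 0.29 (adjusted p = 1.98e-05), and every mutant library was well under the lowest WT one. Tcstv3 had 8, 6 and 6 counts in mutant EpiLCs, against 20, 12 and 25 in WT EpiLCs. Here the WT libraries were the more scattered, and the change was -1.52 ± 0.48 (adjusted p = 0.0166). Tmem92 had 13, 7 and 9 counts in mutant EpiLCs, against 24, 19 and 27 in WT EpiLCs, and fell by 1.29 ± 0.42 (adjusted p = 0.0222).

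The calls of Tcstv3 and Tmem92 in EpiLCs depended on single libraries. Tcstv3 lost its call without any 1 of the 3 mutant EpiLC libraries or without the first or the third WT EpiLC library, with changes of -1.56 to -1.23 and an adjusted p of up to 0.132. Tmem92 lost it without the second or the third mutant EpiLC library or the first or the third WT EpiLC library, with changes of -1.27 to -1.13 and an adjusted p of up to 0.0990.

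For Sp110, Usp17la and Usp17lc the EpiLC groups did not overlap, but the tests missed the threshold. Sp110 had 6, 4 and 1 counts in mutant EpiLCs, against 10, 16 and 10 in WT EpiLCs (-1.70 ± 0.63, adjusted p = 0.0528). Usp17la had 10, 9 and 5 counts in mutant EpiLCs, against 18, 23 and 14 in WT EpiLCs (-1.20 ± 0.48, adjusted p = 0.0723). Usp17lc had 11, 10 and 10 counts in mutant EpiLCs, against 21, 25 and 19 in WT EpiLCs (-1.07 ± 0.43, adjusted p = 0.0773). In the authors' deposited table, Usp17lc in EpiLCs had a false discovery rate of 0.0205, Usp17la one of 0.0532 and Sp110 one of 0.0662.

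The 4 genes under the filter were not tested in EpiLCs either. Usp17ld had 5, 1 and 0 counts in mutant EpiLCs, against 9, 13 and 7 in WT EpiLCs, with a log2 fold change of -2.25 and a false discovery rate of 0.0486 in the authors' deposited table. Gm4340 had 4, 0 and 0 counts in mutant EpiLCs, against 6, 6 and 8 in WT EpiLCs. Usp17ld and Gm4340 were lower in every mutant library than in any WT one. In the fit with no filter on low counts neither was called in EpiLCs (adjusted p = 0.0600 for Usp17ld and 0.180 for Gm4340). Gm4340 had a false discovery rate of 0.404 in the authors' deposited table. Zfp352 had 2, 7 and 6 counts in mutant EpiLCs and 9, 7 and 12 in WT EpiLCs, so that these groups touched. Tcstv1 had 1, 0 and 2 counts in mutant EpiLCs and 0, 0 and 1 in WT EpiLCs.

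The array copies of Gm4340 had 12, 1 and 8 counts in mutant EpiLCs, against 35, 32 and 32 in WT EpiLCs. Their log2 fold change was -2.25 ± 0.45 (adjusted p = 4.61e-05). The Usp17l sum had 73, 46 and 36 counts in mutant EpiLCs, against 138, 146 and 130 in WT EpiLCs. In CPM that was 5.52 ± 1.36 in mutant EpiLCs and 15.2 ± 0.242 in WT EpiLCs (SD, n = 3 each), a fall of 1.44 ± 0.18 (adjusted p = 1.15e-10). The Tcstv sum had 9, 6 and 8 counts in mutant EpiLCs, against 20, 12 and 26 in WT EpiLCs. It fell by 1.35 ± 0.47 (adjusted p = 0.0322), and that call was lost without any 1 EpiLC library other than the second WT one, with changes of -1.42 to -1.03 and an adjusted p of up to 0.216.

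**Figure D4:**
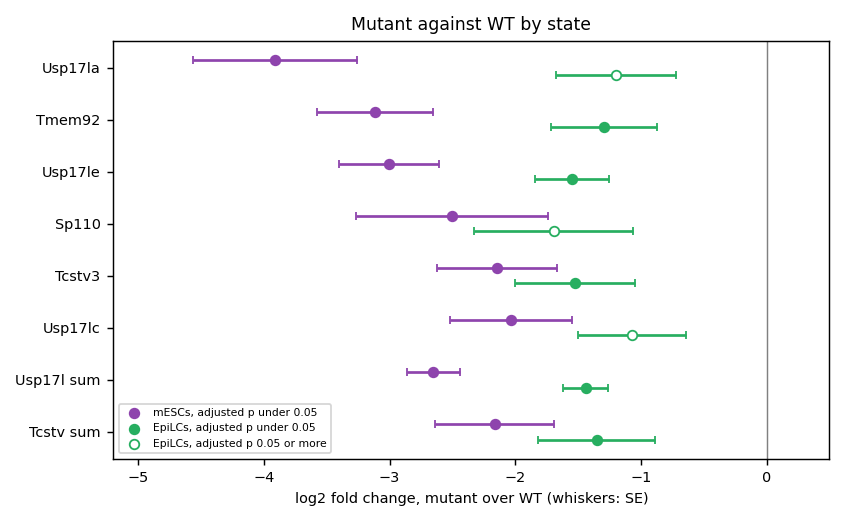
Log2 fold change of mutant over WT with its SE, in mESCs and in EpiLCs, for the 6 tested genes and the Usp17l and Tcstv sums. Filled points have an adjusted p under 0.05. All values lie below 0, between -3.91 and -2.04 in mESCs and between -1.70 and -1.07 in EpiLCs.

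Whether the mutant effect differed between the states was tested as the difference of the log2 fold changes, EpiLCs minus mESCs. A positive value then means a smaller fall in EpiLCs. Only Usp17la was called among the 6 tested genes, at 2.71 ± 0.88 (adjusted p = 0.0310), where 4.68% of all tested genes had a called positive difference. Its call was lost without any 1 of 7 of the 12 libraries, with values of 2.14 to 2.71 and an adjusted p of up to 0.143. Those libraries were the second or the third mutant mESC, the second WT mESC, the first or second mutant EpiLC and the first or the third WT EpiLC library. Without the first mutant mESC library the value was 3.95 (adjusted p = 0.0171). Tmem92 had a difference of 1.82 ± 0.66 (adjusted p = 0.0636), which was 2.85 (adjusted p = 0.0121) without the second mutant mESC library, and Usp17le one of 1.46 ± 0.53 (adjusted p = 0.0616). Usp17le passed the threshold without the second WT mESC library (1.60, adjusted p = 0.0483) or without the third mutant EpiLC library (1.63, adjusted p = 0.0420). Usp17lc (0.97 ± 0.67), Sp110 (0.81 ± 1.05) and Tcstv3 (0.62 ± 0.71) had adjusted p of 0.437 to 0.730.

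The Usp17l sum, with its higher counts, differed between the states by 1.21 ± 0.30 (adjusted p = 0.00195). This call held without any 1 library, with values of 1.00 to 1.38 and an adjusted p of up to 0.0330. The Tcstv sum had a difference of 0.81 ± 0.69 (adjusted p = 0.555).

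The step to EpiLCs was also compared within each genotype. In WT cells no tested gene of the 10 was called, against 62.7% of all tested genes called in either direction. At an unadjusted p under 0.05 there was 1, Tmem92, which was lower in WT EpiLCs, with 1.94 to 3.17 CPM, than in WT mESCs, with 3.88 to 4.50 CPM (-0.69 ± 0.35, adjusted p = 0.0741). Usp17le had 5.42 to 7.47 CPM in WT EpiLCs and 3.59 to 5.40 CPM in WT mESCs, ranges that just missed each other (0.52 ± 0.27, adjusted p = 0.0778). With limma-voom, Tmem92 and Usp17le were both called (adjusted p = 0.0377 and 0.0443). In the authors' deposited table Tmem92 (-0.70) had a false discovery rate of 0.0193 and Usp17le (0.52) one of 0.0455.

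Zfp352, not tested, had 9, 7 and 12 counts in WT EpiLCs, against 0, 5 and 1 in WT mESCs. It had more in every WT EpiLC library than in any WT mESC library. In the authors' deposited table its log2 fold change was 2.19, with a false discovery rate of 0.0103. The Usp17l sum of all 5 rows stayed level at 15.2 ± 0.242 CPM in WT EpiLCs and 14.9 ± 2.45 CPM in WT mESCs (0.03 ± 0.16, adjusted p = 0.883). The 4 listed copies alone had 11.2 to 12.8 CPM in WT EpiLCs and 8.98 to 10.5 CPM in WT mESCs. Those ranges did not overlap, but the rise was not called (0.27 ± 0.19, adjusted p = 0.201). Usp17lb, the added row, went the other way, also not called (-0.61 ± 0.32, adjusted p = 0.0864).

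In mutant cells, Usp17la and Usp17le were higher in EpiLCs than in mESCs, where 33.4% of all tested genes were called higher. Usp17le had 1.61 to 2.91 CPM in mutant EpiLCs and 0.416 to 0.668 CPM in mutant mESCs, a rise of 1.98 ± 0.44 (adjusted p = 4.30e-05). Usp17la had 0.573 to 1.10 CPM in mutant EpiLCs and 0 to 0.334 CPM in mutant mESCs (2.47 ± 0.77, adjusted p = 0.00334). Neither gene's ranges overlapped. Usp17la had a value of 3.70 without the first mutant mESC library. Tmem92 had 0.852 to 1.22 CPM in mutant EpiLCs and 0.222 to 0.937 CPM in mutant mESCs (1.13 ± 0.57, adjusted p = 0.0697). Without the second mutant mESC library its value was 2.16 (adjusted p = 0.00841). The Usp17l sum rose by 1.24 ± 0.25 (adjusted p = 4.39e-06).

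Taking the 4 groups in order of level, the Usp17l sum ran lowest in mutant mESCs, higher in mutant EpiLCs and highest in both WT groups, which did not differ beyond their spread. Tmem92 ran in the order mutant mESCs, mutant EpiLCs, WT EpiLCs and WT mESCs, with means of 0.461, 1.03, 2.60 and 4.18 CPM, and only its mutant groups overlapped. Tcstv3 had a low pair, with 0.612 ± 0.254 CPM in mutant mESCs and 0.723 ± 0.0317 in mutant EpiLCs, and a high pair, with 2.13 ± 0.859 in WT EpiLCs and 2.77 ± 0.206 in WT mESCs. Sp110 was likewise split by genotype, with 0.185 ± 0.321 CPM in mutant mESCs and 0.388 ± 0.240 in mutant EpiLCs against 1.08 ± 0.350 in WT mESCs and 1.31 ± 0.285 in WT EpiLCs.

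**Figure D5:**
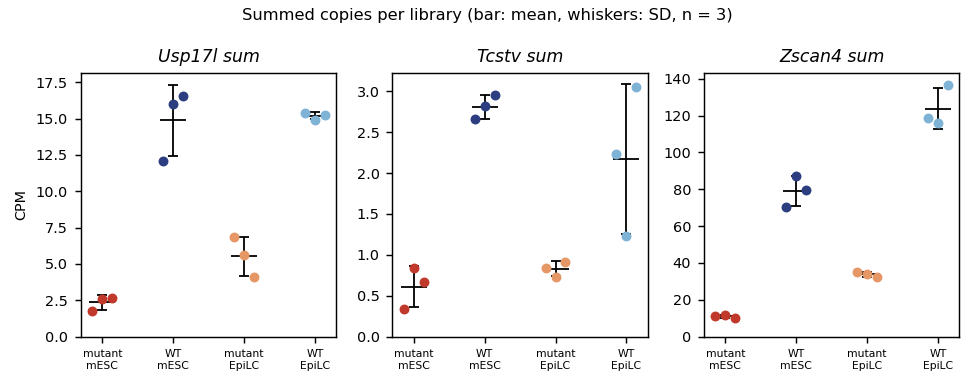
CPM of the summed Usp17l, Tcstv and Zscan4 copies per library, with the mean as a bar and the SD as whiskers (n = 3). The Usp17l sum is alike in both WT groups, at 15.2 CPM in WT EpiLCs and 14.9 CPM in WT mESCs, whereas the Zscan4 sum averages 123.8 CPM in WT EpiLCs and 79.0 CPM in WT mESCs.

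Within the Usp17l family, the copies made up the following shares. Usp17le took 23.1% of the family's 65 counts in mutant mESCs and 29.8% of 403 in WT mESCs, but 39.4% of 155 in mutant EpiLCs and 42.3% of 414 in WT EpiLCs. Usp17lb took 38.5% in mutant mESCs, 33.7% in WT mESCs, 21.3% in mutant EpiLCs and 21.7% in WT EpiLCs. In mutant mESCs Usp17lb had 2, 8 and 15 of the family's 16, 25 and 24 counts, so that its share there depended on the library. These shares rest on reads that copies can share, and their differences were not tested.

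Beside these genes, the summed Zscan4 family had 11.0 ± 0.953 CPM in mutant mESCs and 79.0 ± 8.28 in WT mESCs, and 33.8 ± 1.25 in mutant EpiLCs and 123.8 ± 11.3 in WT EpiLCs (SD, n = 3 each). In both states each mutant library lay below every WT library.

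A list of 78 further genes of the 2-cell-like state gives the setting. Of its genes, 62 were in the table as 58 distinct rows, and 33 were tested. In mutant mESCs 18 were called lower, against 10.1% of all tested genes, and 1 higher, with a median log2 fold change of -1.69 over the 33, against 0.00 over all tested genes. In mutant EpiLCs 17 were called, all lower, against 8.82% of all tested genes, with a median of -1.21. Without the 6 Zscan4 genes, 12 of 27 were called lower and 1 higher in mESCs (median -0.79), and 11 of 27 lower in EpiLCs (median -0.56). As for the 10 genes, some of the list passed the filter on low counts through the WT libraries. Gm6763, with 1, 2 and 1 counts in mutant mESCs and 16, 15 and 14 in WT mESCs, is an example. The filter thus favoured falls among such genes, and these counts of calls say little by themselves. A smaller fall in EpiLCs was called in this list mainly for Zscan4 genes. The difference of effects, EpiLCs minus mESCs, was called for 4 of the 33, all positive, against 4.68% of all tested genes (median 0.36). Without the Zscan4 genes it was called only for Gm20767, 1 of 27 (median 0.17), which is not above the share of all tested genes. By size, the leading genes in mESCs were Gm6763, 1 of the array copies above, Zscan4b at -3.31 ± 0.38 (adjusted p = 2.47e-12) and Zscan4e at -3.15 ± 0.25 (adjusted p = 5.37e-22). In EpiLCs they were Pramef25 at -2.83 ± 0.72 (adjusted p = 0.00226), Gm8300 at -2.53 ± 0.28 (adjusted p = 4.72e-13) and again Gm6763.

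Regulators of the state were read as a second list. Of its 41 activators and repressors, all tested, 6 were called in mutant mESCs, all higher, where 8.40% of all tested genes were called higher. In mutant EpiLCs 2 were called higher, against 7.02% of all tested genes, and 8 lower, against 8.82%. Lin28a, an RNA-binding protein gene, averaged 156.6 ± 3.88 CPM in mutant mESCs and 55.5 ± 4.74 in WT mESCs (1.50 ± 0.05, adjusted p = 3.55e-51). Pcgf6 and L3mbtl2, subunits of a variant Polycomb complex, each rose by 0.21 in mESCs (adjusted p = 0.0125 and 9.50e-04). In EpiLCs Tbx3, a transcription factor gene, averaged 5.16 ± 0.400 CPM in mutant cells and 16.2 ± 3.15 in WT cells (-1.65 ± 0.13, adjusted p = 2.34e-21). The DNA demethylation genes Tet2 and Tet1 fell there by 0.89 ± 0.06 (adjusted p = 2.56e-22) and 0.59 ± 0.04 (adjusted p = 1.97e-23).

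Since Sp110 is interferon-inducible, 32 interferon genes were read beside it, of which 19 were tested. In mutant mESCs 2 rose and 2 fell, where 8.40% of all tested genes were called higher and 10.1% lower. In mutant EpiLCs 3 were called, all higher, against 7.02% of all tested genes. Psmb9, an immunoproteasome subunit gene, fell by 1.97 ± 0.60 in mESCs (adjusted p = 0.0111). Ddx58, an RNA sensor gene, rose by 1.06 ± 0.12 (adjusted p = 4.94e-13), and Ifi35 by 0.83 ± 0.27 (adjusted p = 0.0182). In EpiLCs the 3 that rose were Oasl2 (1.31 ± 0.48, adjusted p = 0.0443), Bst2 (0.31 ± 0.06, adjusted p = 4.18e-05) and Irf1 (0.31 ± 0.11, adjusted p = 0.0297).

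The genes whose levels most resembled the mean profile of the tested members over the 12 libraries were picked by Pearson's r among 13329 genes averaging 1 CPM or more. They were Gm364 (r = 0.977), Sohlh2 (0.976), Gm5039 (0.969), Smoc1 (0.968), Zfp516 (0.962) and Xlr3a (0.953), and the Zscan4 sum had 0.944. The 12 libraries share 4 group means, so these values largely describe the order of the groups. Sohlh2, a germ cell transcription factor gene, had 18.6 ± 1.38 CPM in mutant mESCs, 63.5 ± 4.04 in WT mESCs, 30.9 ± 3.06 in mutant EpiLCs and 63.0 ± 4.52 in WT EpiLCs. Xlr3a, an X-linked multicopy gene, had 0.218 ± 0.00833 CPM in mutant mESCs, 4.82 ± 0.731 in WT mESCs, 1.09 ± 0.784 in mutant EpiLCs and 7.18 ± 0.381 in WT EpiLCs.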

How the data were processed

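RNA was sequenced in 12 libraries of E14 mESCs and EpiLCs, in TRIzol extracts made into libraries with a NEBNext Ultra II kit, per the labels' protocols. Each library's group is that of its genotype and cell type labels. In the deposited table the columns other than WT carry a code found in no label. They were read as the mutant, since WT and mutant are the only genotypes labelled, and all directions of mutant against WT rest on that.

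Counts were deposited raw, per gene. The submitters' processing notes list STAR 2.5.3a, featureCounts (Subread), edgeR 3.18.1 and FastQC 0.11.2, and the mm10 build. Parameters for reads that match several copies are not given in the sources used here. The 6 array rows beside Gm4340 held equal counts in every library. Gm4340, which shares 98.9% of its words with each of them, held other counts. In WT mESCs it had 6, 0 and 0 counts, where each of them had 16, 15 and 14. How reads were divided among these rows was not tested, so the Gm4340 row is hard to interpret. Whether reads were counted for several Usp17l rows was not tested either. The authors' deposited TPM were used for levels between genes, their deposited CPM (a score scaled to effective library sizes) only as a check, and the log2 fold changes and p-values that the authors deposited only where the text names them.

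Of 19656 features, 26 named as dates (0.182 to 0.212% of counts) were left out. After filterByExpr, libraries were scaled with TMM factors of 0.984 to 1.01. The quasi-likelihood test of edgeR 4.0.16 (R 4.3.3) was run in 1 fit to all 12 libraries, with 8 residual degrees of freedom and Benjamini-Hochberg adjustment over 13879 genes at 0.05. CPM are from effective library sizes. Family sums replaced their rows in a second fit. The limit of 3 counts used for a group at 0 covers counting error only. Chi-square per degree of freedom was 1.91 to 3.00 between replicates, so none was a copy of another. The steps were tested on simulated data.

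The genes, lists and tests were chosen with earlier results of these data known. The named genes are all 10 genes, the family sums, the 3 called genes with the largest change per list and state, and the 6 genes most alike in profile. Neighbours, array copies and genes with related start windows were named after their values were seen. Alternatives were relative log expression factors, DESeq2 1.42.0, limma-voom 3.58.1, other filters on low counts, the compared groups alone, a replicate block and leaving out each library.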

Additional observations from a re-analysis of the deposited data

Results flagged for a closer look

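The mutant effect of Usp17la and of the Usp17l sum differed between the states by a test of the difference itself. For Usp17la the difference of log2 fold changes, EpiLCs minus mESCs, was 2.71 (adjusted p = 0.0310, edgeR quasi-likelihood test with Benjamini-Hochberg adjustment). For the Usp17l sum, which holds Usp17la, it was 1.21 (adjusted p = 0.00195), and that call held without any 1 library. The Usp17la call was lost without any 1 of 7 of the 12 libraries, with an adjusted p of up to 0.143. All 3 mutant libraries lay below all 3 WT libraries in each state for both, which held for 16.4% of tested genes in mESCs and 16.0% in EpiLCs. Usp17la had 4 counts over the mutant mESC libraries, against 65 over the WT mESC libraries, and 24 over the mutant EpiLC libraries, against 55 over the WT EpiLC libraries.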

How the results depend on the processing

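The number of the 10 genes called lower in mutant mESCs was 4 to 6 over all alternatives, 4 being with families summed, which leaves fewer genes. In mutant EpiLCs it was 3 or 4, and 1 to 3 with 1 library left out. The number called for the difference of effects was 2 with limma-voom and 0 to 2 with 1 library left out. For EpiLCs against mESCs, it was 2 in WT cells with limma-voom, 1 with no filter (Zfp352) and 1 with only the compared groups. In mutant cells it was 1 with only the compared groups, where 1 gene was tested, and 1 with families summed. The Tcstv sum in mutant EpiLCs lost its call with limma-voom (-1.21, adjusted p = 0.0708) and had changes of -1.64 to -1.03 with 1 EpiLC library left out. Sp110 in mutant mESCs had -3.21 with limma-voom. The cause was not tested where none is named. No value changed sign among those called. Of 636 values under alternatives, 585 kept their side of the threshold or, for counts, came within 1.5 times. Signs changed in 4 of these, all near 0 and not called, with 1 library left out: the Usp17l sum (-0.10) and Usp17lc (0.14 and 0.02) between WT states, and Tcstv3 (-0.07) between mutant states. Same-numbered libraries did not deviate together (r = -0.044 to 0.027), and a replicate block left the counts at 6, 3, 1, 0 and 2 for the 5 comparisons, in the order of the text. Counts of 5 to 56 over all libraries left Tcstv1, Zfp352, Usp17ld and Gm4340 with no test, so differences there were not detectable at this depth unless given above.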
